A study of Mus musculus with 9 samples.

Results

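The colony-stimulating factors and their receptors were followed in RAW264.7 macrophages, a mouse macrophage-like line established from a virus-induced tumour. The 9 genes were listed by symbol and matched to the Ensembl identifiers of the count files, and all 9 of them were found among 55487 genes. They comprise 2 ligands (Csf1 and Il34) and 7 receptor genes (Csf1r, Csf2ra, Csf2rb, Csf2rb2, Csf3r, Kit and Flt3). Of these, 7 had enough counts to be tested beside the 14312 genes tested in all, and Kit and Flt3 had no count in any library. The question was how each ligand and receptor gene differed between cells with an intact transcription factor C/EBPδ (the product of Cebpd), cells without it and cells with a C/EBPδ that lacks its transactivation domain.

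The 3 genotypes are labelled CEBPD wild type, CEBPD KO and CEBPD TAD mutant and are called wild-type, knock-out and ΔTAD macrophages here, with 3 libraries each. Both mutants were homozygous and were made with CRISPR/Cas9 and guides on either side of the transactivation domain, and clones in which that deletion was out of frame served as knock-out cells. All cells were unstimulated and were grown in medium with fetal calf serum, and the labels list no added colony-stimulating factor. The series names 3 independent clones without saying how these were spread over the genotypes, so the p-values measure the spread between these libraries, which may be technical, and a difference between genotypes cannot be told apart from a difference between clones.

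In bone marrow and tissues, these factors keep myeloid cells alive and direct their growth. CSF1 (M-CSF) and IL-34 bind the same tyrosine kinase receptor, CSF1R, on which most macrophages depend. GM-CSF binds a receptor of a specific α chain (Csf2ra) and a β chain (Csf2rb) that it shares with IL-3 and IL-5, and mice have an additional β chain gene, Csf2rb2, whose product serves IL-3. Csf3r encodes the receptor of G-CSF, the factor of neutrophil production. Kit and Flt3 are relatives of CSF1R that bind stem cell factor and FLT3 ligand and mark blood progenitors, Kit also mast cells. Promoters of several of these receptor genes are known targets of C/EBP factors and PU.1.

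The libraries held 16113306 to 20981829 counts on genes, and 3 counts, taken as the limit that a count of 0 allows, were worth 0.143 to 0.210 CPM (counts relative to the library total scaled by its TMM factor). Limits of this kind cover counting error only. The intervals of the fold changes given below come from the edgeR fit and rest, like its p-values, on the spread between these libraries. ΔTAD replicate 1 stood apart before any comparison. Its chi-square per gene against the other ΔTAD libraries was 150, while other pairs within a genotype gave 2.01 to 4.18, and 11% of its counts fell on CT010467.1, against 0.303% to 1.16% in the remaining libraries. The TMM factor of this library was 0.888, and its part in the results was not tested beyond the values without it given below. Cebpd itself had means of 6.51 ± 0.674, 5.44 ± 0.201 and 5.44 ± 0.669 CPM (SD, n = 3) in the 3 genotypes, named in the order wild-type, knock-out, ΔTAD, which does not check the labels, since much of the transcript lies outside the deleted stretch.

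Markers of other blood cells were close to absent. Of 7 macrophage markers, 6 exceeded 3 counts in at least 1 library, with Mertk at no more than 2 counts, and their summed level was 2111 to 2262 CPM in wild-type, 3108 to 3468 CPM in knock-out and 5342 to 5523 CPM in ΔTAD macrophages. Lyz2 made up most of this sum (means of 1167, 2114 and 4192 CPM in that order), and the list did not move as one: Fcgr1 was at 39.5, 17.8 and 28.9 CPM and Itgam at 34.4, 30.6 and 31.1 CPM, and their part in the results was not tested. The mast cell genes Cpa3, Fcer1a, Tpsb2 and Mcpt4 were at 0 in all libraries, and only Hdc of that list of 5 was detected, at no more than 15 counts. The summed mast cell list ran from 0 to 0.0605 CPM in wild-type, 0.105 to 0.423 CPM in knock-out and 0.140 to 0.720 CPM in ΔTAD macrophages. Of 5 granulocyte genes only S100a8 was above 3 counts (list sums of 0.908 to 1.25, 1.25 to 1.37 and 0.420 to 1.43 CPM), and of 4 dendritic cell genes Zbtb46 and Xcr1 (1.04 to 1.45, 1.05 to 1.93 and 1.05 to 1.15 CPM). The 3 T cell genes were at 0 throughout, and no B cell or fibroblast gene exceeded 3 counts.

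A pair of genes of the GM-CSF and IL-3 receptors lie side by side and are near copies of each other. Csf2rb (ENSMUSG00000071713) occupies chr15:78325752-78353847 on the plus strand of GRCm38 and Csf2rb2 (ENSMUSG00000071714) chr15:78282507-78305721 on the minus strand, 20.03 kb apart. Their coding sequences were identical at 95.2% of 2628 aligned bases, with a longest identical run of 242 bases. The following 60 bases, exonic coding bases 12 to 71 of either gene, are shown because they carry 2 differences and illustrate how little separates reads of 50 bases from the pair. The differing bases are in capitals, and the stretches are chr15:78335218-78335277 (plus strand) for Csf2rb and chr15:78298159-78298218 (minus strand) for Csf2rb2.
Csf2rb: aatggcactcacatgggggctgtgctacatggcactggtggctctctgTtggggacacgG
Csf2rb2: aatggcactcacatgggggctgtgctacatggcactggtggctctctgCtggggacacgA
Of all 50-base words of the annotated transcripts, 12.3% of those of Csf2rb and 18.9% of those of Csf2rb2 also occurred in another gene, 892 of them shared by the pair. Records that aligned to more than 1 place were tallied apart from the genes, so both genes are measured by the rest of their length and their levels are uncertain to that extent. Csf2ra, Csf1 and Kit shared no such word with any gene.

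The GM-CSF receptor α chain showed by far the widest range of the 9 genes. Csf2ra (ENSMUSG00000059326, chr19:61223957-61228429, minus strand) was at 0.249, 0.810 and 0.424 CPM in the wild-type libraries, resting on 5, 14 and 7 counts. In knock-out macrophages it was at 2.90, 3.69 and 3.34 CPM (55, 61 and 59 counts). ΔTAD macrophages stood at 17.1, 19.6 and 19.6 CPM (244, 409 and 412 counts). The 3 genotypes formed separate ranges, lowest in wild-type and highest in ΔTAD macrophages. The means were 0.4945 ± 0.287, 3.31 ± 0.394 and 18.8 ± 1.48 CPM (SD, n = 3).

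Csf2ra rose 6.74-fold in knock-out macrophages (log2 fold change 2.75, SE 0.270, 95% interval 2.19 to 3.31, adjusted p = 3.97e-09 with edgeR's quasi-likelihood test and Benjamini-Hochberg adjustment over all genes tested). It rose 38.6-fold in ΔTAD macrophages (log2 fold change 5.27, SE 0.183, 4.89 to 5.65, edgeR adjusted p = 8.74e-18), the 12th highest fitted fold change of the 14312 genes tested, while that in knock-out macrophages ranked 53rd. Between the mutants, knock-out macrophages were lower than ΔTAD macrophages (log2 fold change -2.52, SE 0.124, edgeR adjusted p = 4.32e-14). Csf2ra therefore differed in all 3 comparisons, and the calls held under each of the 15 alternative settings in which it was tested. The fold against wild-type rests on few counts: the log2 fold changes in knock-out and ΔTAD macrophages were 2.40 and 4.91 without wild-type replicate 1, and 3.31 and 5.82 without wild-type replicate 2. Without ΔTAD replicate 1, the value against wild-type became 5.30.

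The bases before the RefSeq start of Csf2ra are shown because this gene moved most, and those of Csf2rb2 because it is the only β chain gene that was called. Both are 250 bases of GRCm38.p6 as given by RefSeq, at chr19:61228419-61228668 (minus strand) and chr15:78305722-78305971 (minus strand), read towards the gene. The last few bases of the Csf2ra window overlap the first exon of the GENCODE annotation. Capitals mark matches to GAGGAA, the core of PU.1 sites, and in Csf2ra also to TTNNGNAA, a C/EBP core, each searched on both strands.
Csf2ra: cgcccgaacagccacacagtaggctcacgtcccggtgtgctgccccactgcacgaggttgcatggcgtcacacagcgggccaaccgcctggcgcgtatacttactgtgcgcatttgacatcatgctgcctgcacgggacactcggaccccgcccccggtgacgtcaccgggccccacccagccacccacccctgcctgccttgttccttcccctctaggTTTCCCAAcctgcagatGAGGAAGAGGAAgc
Csf2rb2: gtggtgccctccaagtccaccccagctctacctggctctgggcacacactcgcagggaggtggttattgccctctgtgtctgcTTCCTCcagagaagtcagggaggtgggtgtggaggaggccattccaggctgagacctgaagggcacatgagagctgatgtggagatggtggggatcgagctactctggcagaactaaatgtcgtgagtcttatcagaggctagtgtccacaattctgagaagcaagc
The Csf2ra window held 1 C/EBP core match, on the opposite strand and read here as TTTCCCAA from position -31. It also held GAGGAA at positions -14 and -8, counted back from the RefSeq start. The match at -8 lies within the first exon of the GENCODE annotation, and that at -14 runs into it. In Csf2rb2, GAGGAA was found on the opposite strand at -167. In the same window of Csf3r it was found at -86, with no C/EBP core match. The Csf3r window (chr4:126024409-126024658) runs past the GENCODE start of the gene at 126024550, and this match lies beyond that start. None of the windows of the 6 genes searched (Csf1, Kit, Flt3, Csf2ra, Csf2rb2 and Csf3r) held CCAAT or its reverse complement ATTGG. Windows of Csf1r, Csf2rb and Il34 were not searched. Of all 32851 promoter windows of this length, 36.8% held TTNNGNAA or its reverse complement TTNCNNAA, 33.8% CCAAT or ATTGG and 23.3% GAGGAA or TTCCTC. The matches describe letters only and were not tested as binding sites.

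**Figure D1:**
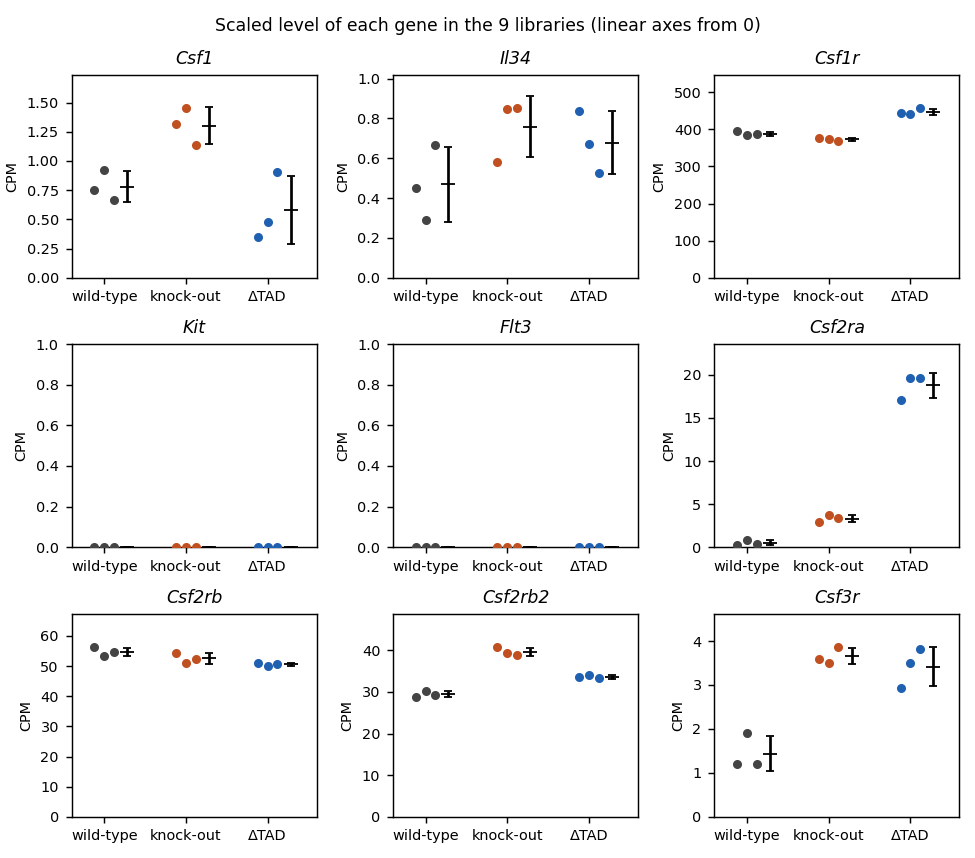
Scaled level in CPM (linear axes from 0) of each of the 9 genes in each of the 9 libraries, grouped by genotype along the horizontal axis. Points are libraries, and the bars beside them are the mean and SD of 3 libraries. Csf2ra separates into 3 ranges, Csf3r is higher in both mutants, Csf1r and Csf2rb change by little, and Kit and Flt3 lie at 0.

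The β chain genes changed far less than the α chain. Csf2rb2, which serves IL-3, was at 28.9, 30.3 and 29.4 CPM in wild-type, 40.7, 39.3 and 39.0 CPM in knock-out and 33.5, 34.0 and 33.3 CPM in ΔTAD macrophages. No library of one genotype fell within the range of another, with knock-out macrophages highest. Csf2rb2 rose in knock-out macrophages (log2 fold change 0.43, SE 0.0529, 0.32 to 0.54, edgeR adjusted p = 1.98e-07) and stayed higher there than in ΔTAD macrophages (0.24, SE 0.0517, edgeR adjusted p = 0.000557). The rise in ΔTAD macrophages was smaller (log2 fold change 0.19, SE 0.0538, 0.08 to 0.30, edgeR adjusted p = 0.00434). This last call was kept in 9 of 16 alternative settings, at adjusted p-values of 0.00185 to 0.282. It was lost with DESeq2 (0.0233), with library size alone as the scaling (0.282), and in edgeR without ΔTAD replicate 1 (0.0194), ΔTAD replicate 2 (0.0209), ΔTAD replicate 3 (0.0102), wild-type replicate 1 (0.0216) or wild-type replicate 3 (0.0143).

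Csf2rb, the β chain of the GM-CSF receptor, was at 56.2, 53.5 and 54.7 CPM in wild-type, 54.4, 50.9 and 52.4 CPM in knock-out and 51.1, 50.1 and 50.5 CPM in ΔTAD macrophages. Knock-out and wild-type libraries overlapped, and ΔTAD libraries lay below all wild-type libraries. Neither difference from wild-type passed the threshold: in knock-out macrophages the log2 fold change was -0.06 (95% interval -0.15 to 0.03, edgeR adjusted p = 0.247), and ΔTAD macrophages gave -0.12 (-0.20 to -0.03, edgeR adjusted p = 0.0197). The latter passed with library size alone as the scaling (-0.20, adjusted p = 0.00691) and with the test restricted to genes that reached 10 counts everywhere (-0.14, adjusted p = 0.00781). Between the mutants the difference was 0.06 (-0.03 to 0.15, edgeR adjusted p = 0.279).

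Set against each other within a library, the chains of these receptors stood in different proportions in the 3 genotypes. The ratio of Csf2rb2 to Csf2rb counts was 0.514, 0.567 and 0.537 in wild-type, 0.749, 0.771 and 0.744 in knock-out and 0.656, 0.678 and 0.658 in ΔTAD macrophages. Per kb of exons, the ratio of Csf2ra to Csf2rb was 0.0231 ± 0.0139 for wild-type, 0.160 ± 0.0241 for knock-out and 0.941 ± 0.0815 for ΔTAD macrophages (SD, n = 3). In neither ratio did libraries of different genotypes overlap, and each exact permutation test, two-sided, gave p = 0.1, the smallest that 3 libraries against 3 allow.

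Csf3r, the G-CSF receptor (ENSMUSG00000028859, chr4:126024550-126044440, plus strand), was higher in both mutants. It was at 1.20, 1.91 and 1.21 CPM in wild-type, 3.59, 3.50 and 3.85 CPM in knock-out and 2.94, 3.50 and 3.81 CPM in ΔTAD macrophages. All mutant libraries lay above all wild-type libraries, and the mutants overlapped each other. Csf3r rose 2.54-fold in knock-out (log2 fold change 1.35, SE 0.200, 0.93 to 1.76, edgeR adjusted p = 3.25e-06) and 2.41-fold in ΔTAD macrophages (1.27, SE 0.201, 0.86 to 1.68, edgeR adjusted p = 6.81e-06). Between the mutants the log2 fold change was 0.08 with a 95% interval of -0.27 to 0.42 (edgeR adjusted p = 0.738). The calls against wild-type held in all 16 alternative settings, and without ΔTAD replicate 1 the ΔTAD value was 1.32. Of the 50-base words of Csf3r, 10.7% also occurred in other genes, 8.84% in AC105061.2 alone.

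CSF1R, the receptor of CSF1 and IL-34, was the most abundant of these transcripts in every library. Csf1r (ENSMUSG00000024621, chr18:61100598-61132149, plus strand) was at 394.5, 384.6 and 386.6 CPM in wild-type, 375.7, 375.1 and 368.9 CPM in knock-out and 445, 440.8 and 456.6 CPM in ΔTAD macrophages. Libraries of the 3 genotypes did not overlap, but the differences were small. Csf1r rose 1.15-fold in ΔTAD macrophages (log2 fold change 0.20, SE 0.0327, 0.14 to 0.27, edgeR adjusted p = 8.4e-06), and did not pass the threshold in knock-out macrophages (-0.06, -0.13 to 0.01, edgeR adjusted p = 0.14). Knock-out macrophages were lower than ΔTAD macrophages (log2 fold change -0.26, SE 0.0327, edgeR adjusted p = 6.97e-07). With library size alone as the scaling, the ΔTAD difference from wild-type (0.11, adjusted p = 0.137) and that between the mutants (-0.19, adjusted p = 0.0197) no longer passed, whereas without ΔTAD replicate 1 both did (0.18 and -0.24). Hmgxb3 lies on the opposite strand over 15.1% of the exonic bases of Csf1r. Records that matched more than 1 gene were tallied apart as ambiguous (0.974% to 1.24% of records per library). The strand setting of the counting is not given in the sources used here. Whether reads of that stretch counted towards Csf1r or were set aside is therefore not known. In a culture, fewer cells with a transcript and less of it per cell cannot be told apart, which holds for every gene here.

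The ligand genes were near the lower limit of detection. Csf1 (ENSMUSG00000014599, chr3:107741048-107760469, minus strand) had 15, 16 and 11 counts in wild-type, 25, 24 and 20 in knock-out and 5, 10 and 19 in ΔTAD libraries, which is 0.780 ± 0.133, 1.30 ± 0.159 and 0.578 ± 0.290 CPM (SD, n = 3). Knock-out libraries lay above all others on the CPM scale, and those of wild-type and ΔTAD macrophages overlapped. Against wild-type, knock-out macrophages gave a log2 fold change of 0.73 (SE 0.305, 0.10 to 1.36, edgeR adjusted p = 0.0457) and ΔTAD macrophages one of -0.37 (SE 0.353, -1.10 to 0.36, edgeR adjusted p = 0.385), neither past the threshold. Csf1 was higher in knock-out than in ΔTAD macrophages (log2 fold change 1.10, SE 0.318, 0.44 to 1.76, edgeR adjusted p = 0.00688). That call was kept in 9 of 15 alternative settings (adjusted p-values of 0.00169 to 0.0451) and was lost with DESeq2 (0.0229) and in edgeR without knock-out replicate 1 (0.0227), knock-out replicate 2 (0.0297), knock-out replicate 3 (0.0112), ΔTAD replicate 1 (0.0291) or ΔTAD replicate 2 (0.0451).

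Il34 (ENSMUSG00000031750, chr8:110741829-110805924, minus strand) had 9, 5 and 11 counts in wild-type, 11, 14 and 15 in knock-out and 12, 14 and 11 in ΔTAD libraries. The CPM ranges of all 3 genotypes overlapped, at means of 0.468 ± 0.189, 0.759 ± 0.155 and 0.678 ± 0.158 CPM (SD, n = 3). The log2 fold changes were 0.69 in knock-out (-0.09 to 1.46, edgeR adjusted p = 0.126) and 0.50 in ΔTAD macrophages (-0.29 to 1.29, edgeR adjusted p = 0.266), so that a difference was not detectable at this depth. Between the mutants the log2 fold change was 0.19 (-0.53 to 0.90, edgeR adjusted p = 0.691).

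The progenitor receptors Kit (ENSMUSG00000005672, chr5:75574916-75656722, plus strand) and Flt3 (ENSMUSG00000042817, chr5:147330741-147400489, minus strand) had 0 counts in each of the 9 libraries. A count of 0 allows a level of up to 0.143 to 0.210 CPM, depending on the library, and no fold change was given for either gene.

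**Figure D2:**
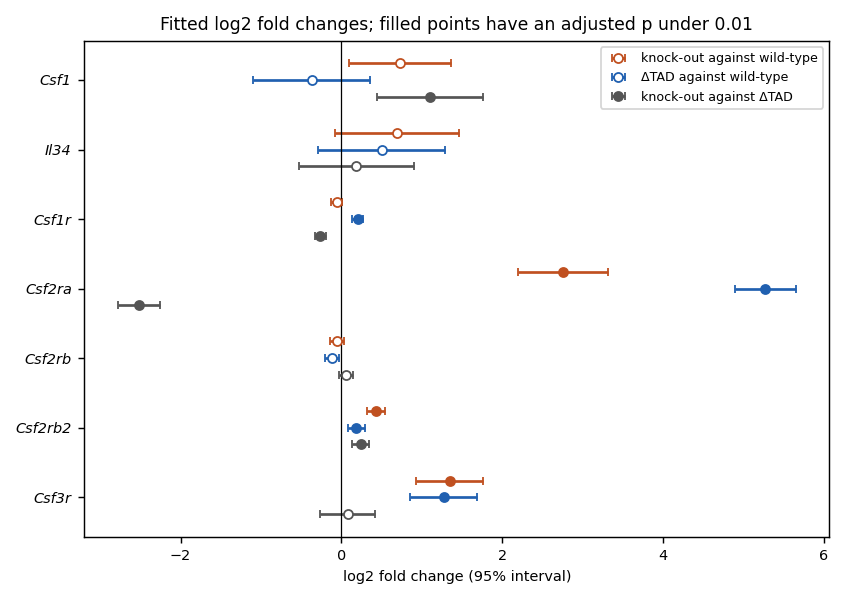
Fitted log2 fold changes (horizontal axis) of the 7 tested genes in the 3 comparisons, with 95% intervals from edgeR. Filled points have an adjusted p under 0.01. Csf2ra lies far from 0 in all comparisons, Csf3r in both comparisons with wild-type and near 0 between the mutants, while the intervals of the ligand genes Csf1 and Il34 are wide.

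Counted together, 3 of the 7 tested genes were called in knock-out against wild-type macrophages, all higher (Csf2ra, Csf2rb2 and Csf3r), where 45.2% of all genes tested were called, 22.8% higher and 22.4% lower. In ΔTAD against wild-type macrophages 4 were called, all higher (the same 3 genes and Csf1r), beside 49.7% of all genes, 26.3% higher and 23.4% lower. Between the mutants 4 of 7 were called, beside 33.0% of all genes: Csf1 and Csf2rb2 were higher in knock-out macrophages (13.9% of all genes were) and Csf1r and Csf2ra lower (19.1%). Over only 7 genes, shares of 42.9%, 57.1% and 57.1% say little against these backgrounds, and the comparisons with wild-type share the wild-type libraries. The median log2 fold change of the 7 genes was 0.69, 0.20 and 0.08 in the 3 comparisons in this order, against -0.00105, -0.00332 and -0.0283 over all genes tested. Each of these medians is the value of 1 gene: Il34, Csf1r and Csf3r in this order. Il34 was not called there (95% interval -0.09 to 1.46) and rests on few counts, and Csf3r was not called between the mutants. The more abundant Csf1r and Csf2rb were both at -0.06 in knock-out macrophages. Csf2ra and Csf3r also passed a limit of 1 on the absolute log2 fold change in both comparisons with wild-type, as 7.66% and 9.31% of all genes did, and Csf2ra and Csf1 passed it between the mutants, as 3.93% of all genes did. Libraries of the genotypes did not overlap for 5, 5 and 4 of the 7 genes, and for 59.7%, 63.1% and 52.8% of all genes.

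Levels of different genes were compared per kb of exons. In wild-type macrophages Csf1r led with 67.3 CPM per kb, followed by Csf2rb with 7.53 and Csf2rb2 with 6.23, each apart from the next without overlap of libraries. Csf3r (0.399), Il34 (0.239), Csf2ra (0.172) and Csf1 (0.148 CPM per kb) followed, and neighbours in this order overlapped. In knock-out macrophages the order was Csf1r (64.6), Csf2rb2 (8.37), Csf2rb (7.22), Csf2ra (1.15), Csf3r (1.01), Il34 (0.387) and Csf1 (0.246 CPM per kb), and only Csf2ra and Csf3r overlapped.

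In ΔTAD macrophages, Csf1r at 77.5 CPM per kb was followed by Csf2rb2 (7.09), Csf2rb (6.95) and Csf2ra (6.54), which lay close together without overlap. Then came Csf3r (0.947), Il34 (0.346) and Csf1 (0.110 CPM per kb). The lowest Csf2rb2 library (7.018) and the highest Csf2rb library (7.017 CPM per kb) were barely apart. Lengths were not corrected for the words that the pair shares, so the order of Csf2rb2 and Csf2rb is not resolved. The order of these genes depends on the length used. With the longest coding transcript in place of all merged exons, a choice made after the data were seen, Csf2rb stood above Csf2rb2 in each genotype, at 11.2 against 6.23 in wild-type, 10.7 against 8.37 in knock-out and 10.3 against 7.09 CPM per kb in ΔTAD macrophages, and Csf2ra, at 10.2 CPM per kb, stood above Csf2rb2 in the latter. In wild-type macrophages Csf2ra (0.267) then came before Il34 (0.261 CPM per kb).

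**Figure D3:**
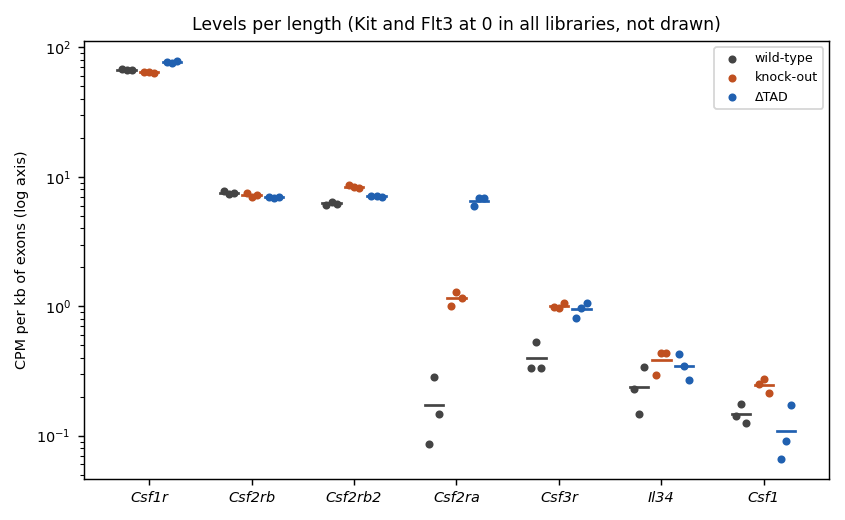
Level per kb of exons (log axis, CPM per kb) of the 7 detected genes in each library, coloured by genotype, with the mean as a bar. Csf1r lies above all others, and Csf2ra moves from the level of the ligand genes in wild-type to that of the β chains in ΔTAD macrophages. Kit and Flt3, at 0, are not drawn.

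No tested neighbour of Csf2ra on chromosome 19 had a fold change near its own. The nearest tested genes, CR555305.2 at 29.11 kb and Gm7102 at 47.65 kb, had log2 fold changes of 0.26 and 0.45 in knock-out and 0.23 and 0.83 in ΔTAD macrophages, none of them called. Of 11 tested genes within 1 Mb, 1 was called higher and 5 lower in ΔTAD macrophages, beside 26.3% and 23.4% of all genes tested. The highest value among them was 0.83, and the median of the 480 other tested genes on the chromosome was 0.02. Most of the tested genes within 1 Mb lay on the side of lower coordinates. On the other side were only CR555305.2 and CR555305.3, with middles 31.47 and 78.97 kb away. Next to Csf2rb2, Ncf4, a subunit of the phagocyte oxidase, lies at 19.93 kb and rose in ΔTAD macrophages (log2 fold change 0.51, edgeR adjusted p = 2.3e-11) with a value of 0.02 in knock-out macrophages. On the other side of the pair, Tst at 45.71 kb was called in neither mutant (0.01 and 0.16).

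Mrps15 lies 2.485 kb from Csf3r, and its values were -0.13 in knock-out (not called) and 0.16 in ΔTAD macrophages (called), against the rise of more than 1 of Csf3r in either mutant. The nearest tested gene on the other side of Csf3r, Zc3h12a, is 896.7 kb away and rose by 0.36 and 0.39. Beside Csf1r, Pdgfrb, the receptor of platelet-derived growth factor and a relative of CSF1R, lies at 15.54 kb and fell from 1.46 CPM in wild-type to 0 in knock-out and 0.0550 CPM in ΔTAD macrophages (edgeR adjusted p = 1.66e-08 and 7e-08), both under the limit that a count of 0 allows. Hmgxb3, which overlaps Csf1r, fell by 0.28 and 0.27 on the log2 scale (edgeR adjusted p = 3.26e-07 and 3.33e-07). Near the ligand genes, Ahcyl1 and Gm5075 on either side of Csf1 and Mtss1l beside Il34 were not called against wild-type, and Sf3b3, on the other side of Il34, fell by 0.25 in knock-out and 0.16 in ΔTAD macrophages.

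**Figure D4:**
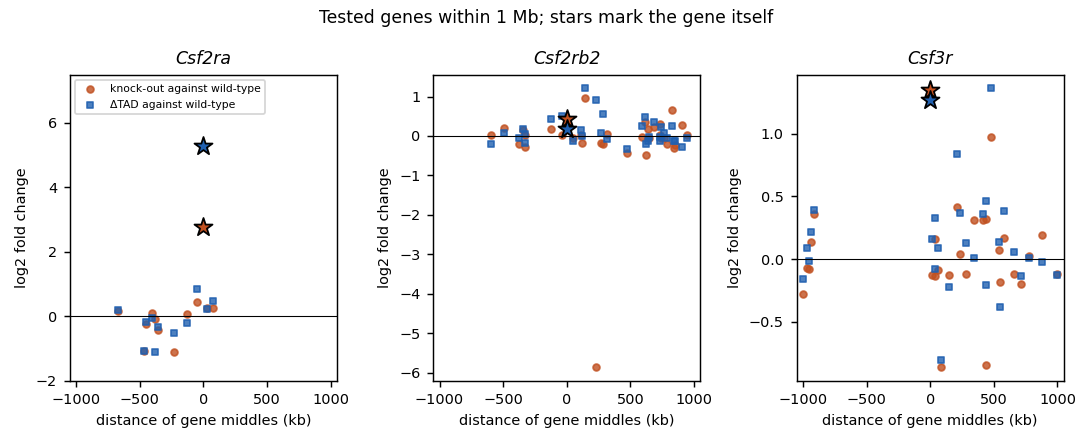
Log2 fold changes against wild-type (vertical axis) of the tested genes whose middles lie within 1 Mb of Csf2ra, Csf2rb2 and Csf3r, by distance from the middle of that gene in kb (horizontal axis), with stars for the gene itself. The stars of Csf2ra stand well above its neighbours. The lone low point of the middle panel is C1qtnf6 (-5.85 in knock-out), named after its value was seen, and the size of so low a fitted value depends on the model's prior count.

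The genes whose levels over the 9 libraries ran most like those of each gene were sought by Euclidean distance of log2 CPM, each gene centred on its own mean. For Csf2ra these were Zfhx4, a zinc finger homeobox gene (distance 1.03, against 6.29 from Csf2ra to a flat line), with mean levels of 1.32, 6.98 and 41.2 CPM in wild-type, knock-out and ΔTAD macrophages, and Calcrl, the calcitonin receptor-like receptor (distance 1.32), at 2.98, 33.1 and 121.1 CPM. Both rose in the same order of genotypes, with log2 fold changes of 2.40 and 4.95 for Zfhx4 and 3.48 and 5.35 for Calcrl. For Csf3r they were Yipf7 (distance 0.410) and Mocos (0.443), for Csf2rb2 Cpd (0.0644) and Nf1 (0.0894), for Csf2rb Zcchc8 (0.0542) and Patl1 (0.0667), and for Csf1r Slc25a4 (0.0632) and Polrmt (0.0761). The low ligand genes ran closest to Gm42683 and Gm42531 (Csf1) and to Rab4b and Gm11175 (Il34). The likeness is a description over 9 libraries of the same 3 genotypes.

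Of 59 further genes of these receptors' pathways, 49 were tested, of which 22 rose and 15 fell in knock-out (75.5% called, against 45.2% of all genes) and 22 rose and 14 fell in ΔTAD macrophages (73.5%, against 49.7%). Between the mutants 15 were higher and 16 lower in knock-out macrophages (63.3% called, against 33.0% of all genes, 13.9% higher and 19.1% lower). With library size alone as the scaling, 18 were higher and 13 lower in knock-out and 19 higher and 17 lower in ΔTAD macrophages against wild-type, and 15 higher and 8 lower between the mutants. Under that scaling, 2760 of all 14312 genes tested were called higher and 2820 lower in knock-out macrophages. The numbers over all genes were 2585 and 3943 in ΔTAD macrophages, and 2281 and 1024 between the mutants. The counts of the lists that follow stand beside shares over all genes of 22.8% called higher and 22.4% lower in knock-out and 26.3% and 23.4% in ΔTAD macrophages, and lists this short are a description only. The median of the absolute log2 fold changes of the 49 pathway genes was 0.29 for knock-out and 0.47 for ΔTAD macrophages, against 0.24 and 0.27 over all genes tested. All 49 reached 10 counts in every library, as 12510 of the 14312 genes tested did. Genes with more counts are called more easily. The shares called were not matched for level, and the part of level in them was not tested.

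Among other ligands, Csf2 (GM-CSF) and Il3 had 0 counts in every library, Il5 at most 3 and Csf3 (G-CSF) at most 6, the latter at 0.198 ± 0.0915 CPM in wild-type, at 0 in the knock-out libraries, at 0.0392 ± 0.0357 CPM in ΔTAD macrophages (SD, n = 3) and too low to be tested. Kitl, stem cell factor, the ligand of Kit, rose in knock-out (log2 fold change 0.56, SE 0.136, edgeR adjusted p = 0.00102) and far more in ΔTAD macrophages (3.33, SE 0.0967, edgeR adjusted p = 2.62e-19), from 4.63 ± 0.179 to 6.84 ± 1.04 and 47.0 ± 4.27 CPM (SD, n = 3). Its receptor gene Kit had no count in these libraries. Flt3l, the ligand of FLT3, was called in neither mutant (0.05 and 0.18). The α chains Il3ra and Il5ra, partners of the β chains for IL-3 and IL-5, had no count, nor did Ptprz1, a receptor of IL-34, while Sdc1 (syndecan-1, which binds IL-34) fell by 0.59 in knock-out and 1.33 in ΔTAD macrophages (edgeR adjusted p = 2.49e-08 and 2.43e-14).

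Of 4 genes of receptor shedding, 1 rose and 3 fell in knock-out macrophages (45.2% of all genes were called) and 2 fell in ΔTAD macrophages, a share of 50% beside 49.7% of all genes. Adam10 rose by 0.18 in knock-out macrophages and had a value of 0.12 in ΔTAD macrophages, which did not pass. Rhbdf2, which brings ADAM17 to the cell surface, fell by 0.415 in knock-out and 0.85 in ΔTAD macrophages. Adam17, the protease that sheds CSF1R, fell by 0.19 in knock-out macrophages and had a value of 0.01 in ΔTAD macrophages, which did not pass.

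The 19 signal transducers, kinases and adaptors that act below these receptors, were called in 68.4% in knock-out (45.2% of all genes) and 73.7% in ΔTAD macrophages (49.7% of all genes): 11 rose and 2 fell in the former, 13 rose and 1 fell in the latter, and the rest were not called. Plcg2, a phospholipase, fell by 0.24 in knock-out macrophages and had a value of 0.008 in ΔTAD macrophages, which did not pass. Lyn, a Src family kinase, fell by 0.19 in both mutants. The kinase gene Jak2, which the GM-CSF receptor uses, was called in neither mutant against wild-type (0.15 and -0.08).

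Of 12 inhibitors, 9 were tested, and 3 rose and 4 fell in each mutant (77.8% called, against 45.2% and 49.7% of all genes). Socs3, the suppressor of G-CSF receptor signals, fell most in both mutants, with log2 fold changes of -1.43 and -1.58 (edgeR adjusted p = 2.28e-13 and 3.29e-14). Cblb, a ubiquitin ligase, rose by 0.42 in knock-out macrophages, and Sla, an adaptor that lowers receptor levels, rose by 1.54 in ΔTAD macrophages. Cish and Socs2, known targets of STAT5, had at most 1 and 0 counts in any library.

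All 6 genes listed as targets of STAT5, the factor activated by GM-CSF and IL-3, were called in both mutants (45.2% and 49.7% of all genes were), 2 higher and 4 lower in knock-out and 1 higher and 5 lower in ΔTAD macrophages. Myc rose by 3.39 and 3.23 (edgeR adjusted p = 3.13e-18 and 8.6e-18), and Ccnd2 (cyclin D2) fell by 1.75 and 1.62 (edgeR adjusted p = 1.85e-21 and 4.63e-21). The members of this list moved in opposite directions, and many other factors act on these genes. The list leaves out Cish and Socs2, which were counted above among the inhibitors and were too low to be tested.

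Of 8 regulators of the receptor genes, 4 rose and 1 fell in each mutant (62.5% called, against 45.2% and 49.7% of all genes). Cebpa, the C/EBP factor of granulocyte and macrophage precursors, rose by 2.40 in knock-out and 2.05 in ΔTAD macrophages (edgeR adjusted p = 1.25e-13 and 4.41e-12), from 3.04 ± 0.857 to 15.9 ± 1.54 and 12.4 ± 0.496 CPM (SD, n = 3). Ets2 fell by 0.51 and 1.18. Spi1, which encodes PU.1, rose by 0.29 and 0.79, and Cebpb was called in neither mutant (-0.04 and -0.11).

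**Figure D5:**
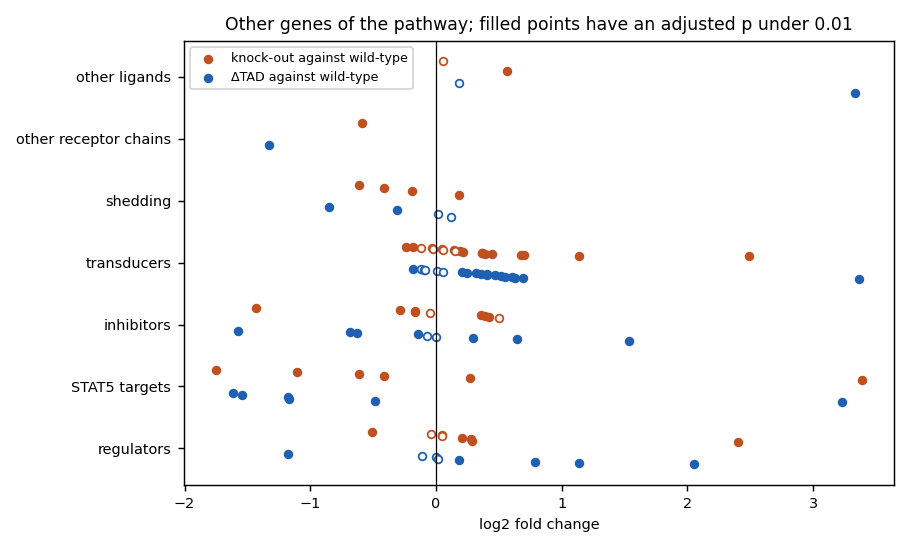
Log2 fold changes against wild-type (horizontal axis) of the 49 tested pathway genes by list (vertical axis). Filled points have an adjusted p under 0.01. Most transducers lie to the right of 0. Most STAT5 targets lie to the left, apart from Myc, above 3 in both mutants, and Bcl2l1 in knock-out macrophages (0.27).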

How the data were processed

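RNA of unstimulated RAW264.7 macrophages (3 wild-type, 3 knock-out and 3 ΔTAD libraries) was depleted of ribosomal RNA and sequenced as single reads of 50 bases. The authors used FastQC, Trimmomatic, Hisat2 (GRCm38) and HTSeq, and deposited counts per Ensembl gene, raw and without normalization; the counting mode and strand are not given in the sources used here. Groups were taken from the genotype labels. These counts were tested here with edgeR 4.0.16 under R 4.3.3: filterByExpr over 3 genotypes (minimum count 10, minimum total 15), TMM scaling, 1 quasi-likelihood fit to all 9 libraries, and Benjamini-Hochberg adjusted p-values over 14312 genes, called under 0.01. Standard errors are the log2 fold change over the square root of F. CPM are TMM-scaled, and levels per kb use merged GENCODE exons. The steps were tested on simulated data.

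The 9 genes and all lists were chosen with earlier results of these data known. Named are the 9 genes; in each pathway list, the called gene with the highest and lowest fold change against wild-type with at least 1 CPM; the 2 genes nearest each tested member by centred log2 CPM (prior count 2); and the nearest tested gene on each side. Some genes that this rule names are not reported here. Other pathway genes (Flt3l, Adam17, Jak2, Spi1, Cebpb, Bcl2l1 and those with almost no counts) were named after their values were seen. Alternatives were DESeq2 1.42.0, other scalings, filters and thresholds, fits of only 2 genotypes, the replicate number as a block and leaving out each library.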

Additional observations from a re-analysis of the deposited data

How the results depend on the processing

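Of 327 log2 fold changes of single genes under the alternatives, 310 kept their direction and their side of the threshold, 15 lost the call, 2 gained it and 0 changed sign; in knock-out against wild-type macrophages 109 of 109 kept both. The 15 concern Csf2rb2 and Csf1r in ΔTAD against wild-type and Csf1 and Csf1r between the mutants, with the values given above, and the causes were not tested. When called genes also had to change by 1 or more on the log2 scale, 2 of the 9 genes remained in ΔTAD against wild-type and 2 between the mutants, and the pathway genes numbered 7, 13 and 3 in the order of the comparisons above. With at least 10 counts required in every library only 4 of the 9 genes were tested and 2 were called between the mutants. Leaving out each library in turn gave 3 to 3, 3 to 4 and 3 to 4 genes called of the 9, and 33 to 37, 34 to 37 and 29 to 32 pathway genes.

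The replicate numbers do not pair the libraries: deviations from the genotype means correlated at -0.0717 to 0.0200 between libraries of the same number. With the number as a block 3, 4 and 4 of the genes and 36, 36 and 31 pathway genes were called. With library size alone as the scaling, 3 genes were called in ΔTAD against wild-type (2 higher and 1 lower) and 3 between the mutants (2 higher and 1 lower), and the pathway genes numbered 31, 36 and 23. The share of all calls that were higher then went from 52.9% to 39.6% and from 42.1% to 69% in these comparisons, and the median of all genes in ΔTAD macrophages to -0.0888. Under this scaling Csf1r stood at 68.9, 65.5 and 74.6 CPM per kb in wild-type, knock-out and ΔTAD macrophages, and Csf2rb and Csf2rb2 at 6.69 and 6.82 in the latter. Depth limits Csf1, Il34, Csf2ra in wild-type and Csf3r most, which rest on 5 to 80 counts per library.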
